A study of Tursiops truncatus with 76 samples.

Results

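Whole blood transcriptomes of bottlenose dolphins (Tursiops truncatus) from Barataria Bay, Louisiana (BAR), were compared between June 2017 and June 2014, 2 collections made in the same calendar month. The members are the 12 BAR samples dated 14 to 23 June 2017 and the 12 BAR samples dated 10 to 19 June 2014, chosen by the site and date in their labels, 24 of the 76 samples in the series. The animals were wild and were bled during capture-release health assessments after the Deepwater Horizon oil spill. No animal was exposed experimentally and no unexposed group enters this comparison. The remaining samples, 12 each from BAR in June 2013, September 2017 and July 2018 and 8 each from Sarasota Bay, Florida (SAR), in May 2014 and May 2016, are used below only to place the levels of single genes.

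The 24 samples came from 24 different animals, and each group held 8 females and 4 males. The animals otherwise differed in make-up between the collections. In June 2017, 3 animals were born before the spill, 6 after it and 3 were of undetermined birth cohort, whereas in June 2014 11 were born before it and 1 after it. Among the females, 1 was pregnant in June 2017 with 4 undetermined, against 6 pregnant in June 2014. The June 2017 group held 1 adult, 9 subadults and 2 calves, and the June 2014 group 6 adults, 5 subadults and 1 calf. Collection year, birth cohort, age class and pregnancy therefore cannot be told apart fully in these groups.

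Blood carries red cells, platelets and all white cell classes, and immature red cells still hold much messenger RNA for heme synthesis and the membrane skeleton. Platelets have no nucleus but keep messages inherited from megakaryocytes, among them those of the fibrinogen receptor and of clotting factors. Basophils and mast cells carry the high-affinity receptor for immunoglobulin E. Every nucleated cell makes ATP through the respiratory chain, in which Complex I takes electrons from NADH, Complexes II to IV pass them on to oxygen, and Complex V (ATP synthase) uses the resulting proton gradient.

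The deposited values are FPKM, in which the fragments of a locus are divided by its length and by the mapped fragments of its library, so that each value is a level relative to the whole library. Summed FPKM ranged from 894815 to 1080090 in June 2017 and from 740052 to 1143280 in June 2014, and the means differed by -18729 (two-sided permutation test, p = 0.63). The share of summed FPKM in the 1000 most abundant loci was 80.1 ± 2.52% in June 2017 and 78.3 ± 2.29% in June 2014 (SD, n = 12 each; permutation test, p = 0.073). The number of loci above 0 was 15411 ± 287 in June 2017 and 15806 ± 407 in June 2014 (p = 0.012 by permutation test, adjusted p = 0.070 over 6 library measures). Relative sequencing depth, estimated from the smallest FPKM steps, was 0.706 to 1.45 in June 2017 and 0.711 to 1.34 in June 2014 (permutation test, p = 0.47). The red cell genes ALAS2 and BLVRB, the platelet gene PF4 and the granulocyte and monocyte gene LYZ were detected in every sample. The 8 white cell, red cell and platelet lists had no named member at 0 in all 24 samples. This is no check of cell content, because 3142 of the 3144 loci with a symbol passed the expression filter described below.

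Expression in June 2017 was mostly lower where it differed. Of 24094 loci, 11632 (48.3%) had a mean FPKM of at least 1 and a value above 0 in at least 12 of the 24 samples, and these were tested with limma on log2(FPKM + 1) with Benjamini-Hochberg adjustment. At an adjusted p of at most 0.05, 357 loci differed, 3.07% of those tested, of which 349 (3.0%) were lower and 8 (0.0688%) were higher in June 2017. A further count of 2142 loci had an unadjusted p under 0.05. The sizes of the called differences ran from 0.37 to 1.69 on the log2 scale with a median of 0.64, a 1.56-fold change, and 25 loci reached a size of 1. All differences are on the log2(FPKM + 1) scale, June 2017 minus June 2014, which understates changes of genes with low values.

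Part of this imbalance was a shift across the whole table. The median difference over all tested loci was -0.12, and 69.4% of the tested loci had a negative difference. With libraries scaled by their median ratio to one another the median was 0.01 and 156 loci (1.34%) were called, 126 lower (1.08%) and 30 higher (0.258%). Quantile normalization gave 205 (1.76%), of which 169 were lower (1.45%) and 36 higher (0.309%). The median-ratio and quantile fits shared 132 and 171 calls with the deposited values, in the same direction. Lower calls thus outnumbered higher calls with each scaling, by a smaller margin once libraries were scaled.

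The number of calls depended on which animals entered. With a term for birth cohort in the 21 animals of known cohort no locus passed, although 1322 had an unadjusted p under 0.05, while the same 21 animals without the term gave 269 calls. All 357 called loci kept their direction with the cohort term. They were chosen for their difference in animals that include these 21, so this agreement is no separate support. The median size of the 357 loci was 0.58 with a median standard error of 0.21, against 0.65 and 0.16 without the term. Among the animals born before the spill, 3 from June 2017 and 11 from June 2014, no locus passed (1191 at an unadjusted p under 0.05). The 357 loci again all kept their direction, which for the same reason is no separate support. Females alone gave 8 calls, all lower in June 2017, with 1316 loci at an unadjusted p under 0.05. A term for body length left 151 calls, one for pregnancy left 157 and one for sex 360. The pregnancy term set females recorded as pregnant against all other animals, so the 4 undetermined females and the males counted as not pregnant. No locus differed between the sexes in its change (limma interaction, 283 loci at an unadjusted p under 0.05). Leaving out 1 library moved the total to between 205 and 615. It moved by more than 1.5 times, downward, without June 2017 replicates 2 (205) or 3 (224) or June 2014 replicates 2 (213), 7 (217), 9 (229) or 10 (223), and upward without June 2017 replicates 6 (562) or 11 (615) or June 2014 replicate 11 (567).

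**Figure D1:**
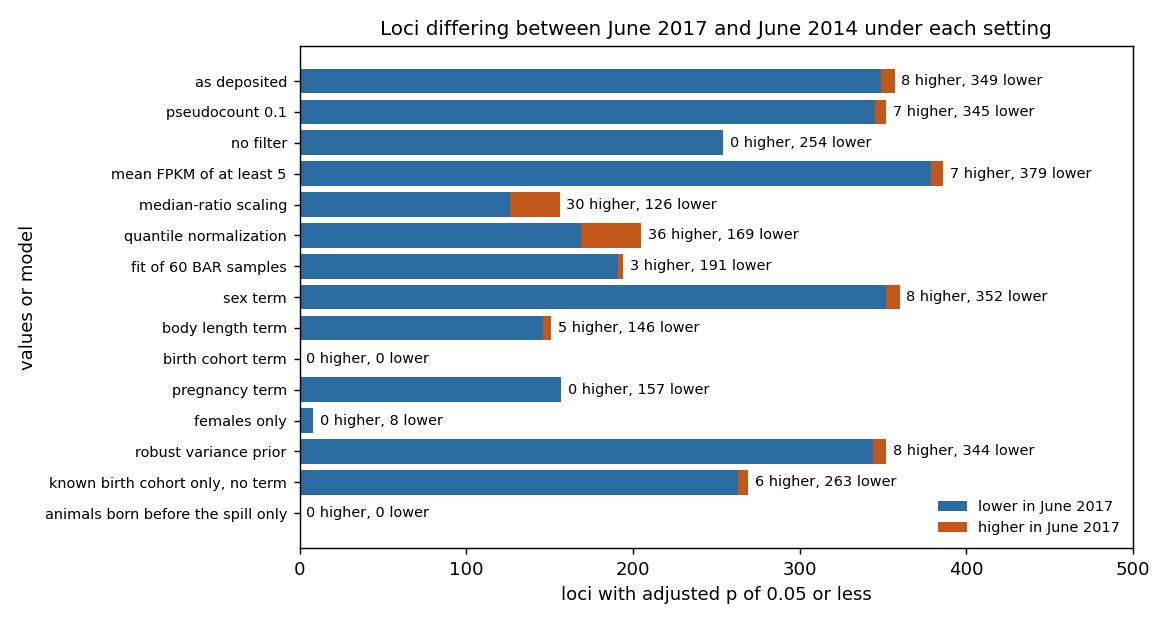
Number of loci with an adjusted p of at most 0.05 (x axis) for the deposited values and for each other scaling, filter, model term or set of animals (y axis), with loci lower in June 2017 in blue and loci higher in orange. The deposited values gave 8 higher and 349 lower loci, and none remained with the birth cohort term or among animals born before the spill.

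The files give loci by position only. Symbols could be attached to 3142 of the 11632 tested loci (27.0%), among them 112 of the 357 called loci. These pairs come from the study's co-expression modules and from its group comparisons, both made from samples that include those compared here. The modules hold far more genes than the comparisons. They group genes whose levels varied together across samples, and genes assigned to no module are not listed in them. A count over named loci, or a shared direction within a gene list, is therefore not independent evidence. Of all named loci 3.56% were called, 3.41% lower and 0.159% higher. The remaining 245 called loci, 3 of the 8 higher ones among them, have no symbol here.

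Of the 5 named loci that were higher in June 2017, 3 are platelet genes. ITGA2B encodes the alpha chain of the platelet fibrinogen receptor and lies on scaffold NW_017843467.1 of Tur_tru v1 from 2292526 to 2294286. Its FPKM had a lowest value of 49.7, a median of 108 and a highest value of 237 in June 2017, against 17.5, 53.6 and 125 in June 2014. The groups overlapped, with 11 of 12 June 2017 animals above the June 2014 median. The difference in ITGA2B was 0.98 (standard error 0.27, limma, adjusted p = 0.042). TUBB1, the tubulin of the platelet's marginal band, had 26.10, 46.8 and 112 FPKM in June 2017 and 12.3, 28.3 and 46.5 in June 2014 (lowest, median and highest), a difference of 0.83 (adjusted p = 0.031, limma). F13A1, the catalytic chain of the clot-stabilizing factor XIII, which monocytes also make, had 32.2, 55.5 and 128 FPKM in June 2017 against 16.0, 36.4 and 53.2 in June 2014, a difference of 0.72 (adjusted p = 0.044). All 3 also passed with median-ratio scaling, at 1.13, 0.97 and 0.86, and with quantile normalization. None of ITGA2B, TUBB1 and F13A1 passed in the fit of the 60 BAR samples (adjusted p = 0.10, 0.11 and 0.17, limma) or with the pregnancy term (adjusted p = 0.17, 0.11 and 0.17). The fit of the 60 BAR samples had no term for animal, so repeat samples of an animal were treated as independent.

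The other platelet genes did not move as one. Of the 24 named platelet and megakaryocyte loci, 3 were called higher and none lower. Their differences ran from -0.58 to 0.98, 12 of them negative and 12 positive. The median was 0.00, against -0.12 for all tested loci. Several receptor genes had values near those of ITGA2B in direction without passing. ITGB3, the beta chain of the same fibrinogen receptor, had a median of 19.2 FPKM in June 2017 and 14.4 in June 2014 (0.66, adjusted p = 0.077, limma), and it passed with median-ratio scaling (0.80, adjusted p = 0.028). GP5, a subunit of the von Willebrand factor receptor, had medians of 19.0 and 11.5 FPKM in June 2017 and June 2014 (0.78, adjusted p = 0.10), and TREML1, a receptor of platelet granules, 19.1 and 11.2 (0.67, adjusted p = 0.092). PF4, a granule chemokine and the most abundant platelet transcript, had a median of 4379 FPKM in June 2017 and 4551 in June 2014 (0.15, adjusted p = 0.78). Summed over the list, platelet FPKM ranged from 4034 to 14750 with a median of 6940 in June 2017, and from 3744 to 10922 with a median of 7574 in June 2014. ITGB3, GP5, TREML1 and PF4 were named after their values were seen. In bulk blood, more cells of a type and more RNA per cell cannot be told apart.

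ENDOD1 and FAM46C were the remaining named genes that rose. ENDOD1, a nuclease-like gene, had 6.47, 14.4 and 25.2 FPKM in June 2017 and 2.919, 8.21 and 12.5 in June 2014 (lowest, median and highest), a difference of 0.73 (adjusted p = 0.039, limma), and it passed with both scalings. FAM46C encodes a poly(A) polymerase found in red cell precursors and in plasma cells. It had 48.4, 96.60 and 190 FPKM in June 2017 and 34.9, 56.5 and 89.2 in June 2014, a difference of 0.78 (adjusted p = 0.043), with an adjusted p of 0.053 after median-ratio scaling and of 0.056 after quantile normalization. The calls of the genes that rose lay near the threshold and were lost on leaving out any of several libraries. With 1 library left out, the difference ranged from 0.85 to 1.10 for ITGA2B, 0.71 to 0.90 for TUBB1 and 0.61 to 0.79 for F13A1. It ranged from 0.63 to 0.82 for ENDOD1 and 0.69 to 0.87 for FAM46C. None of the 5 passed without June 2017 replicate 2. TUBB1 passed in 20 of the 24 fits that leave out 1 library, the other losses being June 2014 replicates 3, 9 and 10, while ITGA2B passed in 12, ENDOD1 in 11, F13A1 in 9 and FAM46C in 8.

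**Figure D2:**
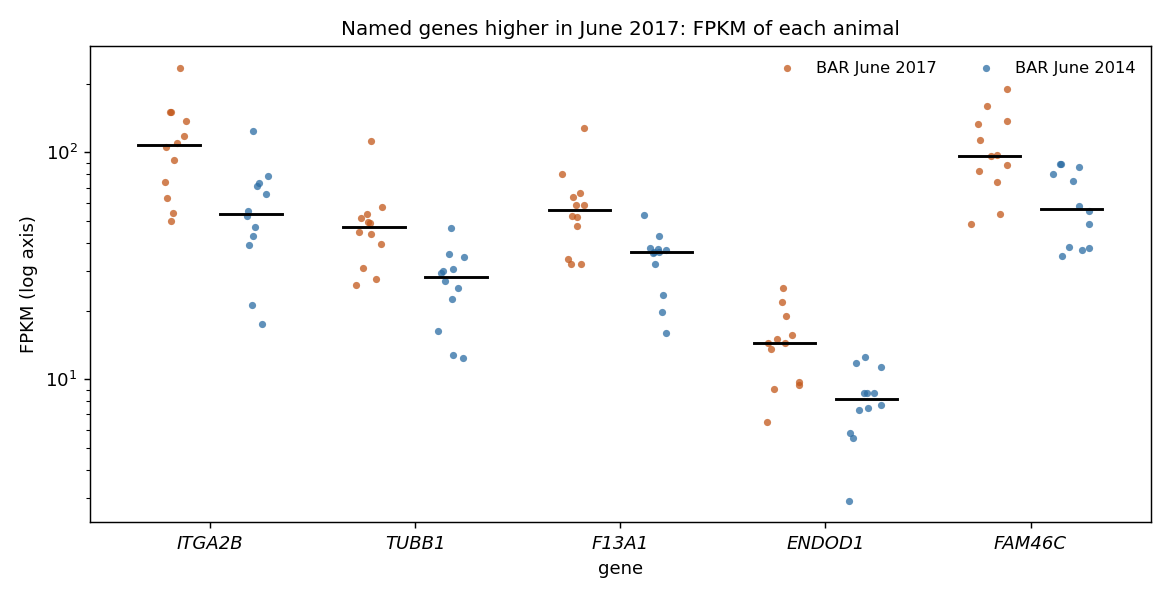
FPKM on a log axis (y) of the 5 named genes that were higher in June 2017 (x), 1 point per animal, June 2017 in orange on the left and June 2014 in blue on the right of each gene, with the median as a black line. The groups overlap for every gene, and the ITGA2B medians are 108 FPKM in June 2017 and 53.6 in June 2014.

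Red cell transcripts leaned upward without passing the test. Of 45 named loci for heme synthesis and red cells, 37 had a positive difference, with a median of 0.50, but only FAM46C was called. With median-ratio scaling none of the 45 was called, and with quantile normalization the only call was a lower locus. DMTN, which links the red cell membrane skeleton to actin, had 68.0, 296 and 545 FPKM in June 2017 and 24.3, 126 and 343 in June 2014 (lowest, median and highest), a difference of 1.30 (standard error 0.40, adjusted p = 0.072, limma). SPTB, the beta spectrin of that skeleton, had a median of 34.8 FPKM in June 2017 and 12.9 in June 2014 (1.13, adjusted p = 0.088). Its locus overlaps another. BLVRB, a heme breakdown enzyme, had medians of 12716 and 9006 FPKM in June 2017 and June 2014 (0.71, adjusted p = 0.092). ALAS2, which starts heme synthesis in red cell precursors, ranged from 4858 to 41984 FPKM in June 2017 and from 3338 to 26589 in June 2014 (0.85, standard error 0.37, adjusted p = 0.21). The ranges overlapped widely for this abundant gene, whose locus overlaps another. Summed over the 45 loci, red cell FPKM ranged from 13735 to 64829 with a median of 45585 in June 2017, and from 10641 to 50378 with a median of 35329 in June 2014, and its part in the lower calls of other genes was not tested. DMTN, SPTB and BLVRB were named after their values were seen. GPX1, a peroxidase abundant in red cells, had medians of 18776 FPKM in June 2017 and 14555 in June 2014 (0.27, adjusted p = 0.44), and TPT1, a translation-associated protein, 17148 and 17144 (0.06, adjusted p = 0.90).

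CLK1, named after its values were seen, had the lowest p of all loci. It encodes a kinase that phosphorylates the serine and arginine-rich splicing factors, and its locus lies on scaffold NW_017843453.1 from 15186235 to 15194438. It had 87.8, 110 and 140 FPKM in June 2017 and 157, 199 and 248 in June 2014 (lowest, median and highest). Every June 2017 animal lay below every June 2014 animal, which held for 2 of the 11632 loci (0.0172%), the other without a symbol. CLK1 fell by 0.81 in log2(FPKM + 1) (standard error 0.10, adjusted p = 9.3e-05, limma) and by 0.66 with median-ratio scaling (adjusted p = 0.00019). It passed among females alone (adjusted p = 0.020) and in every fit that left out 1 library, and had an adjusted p of 0.084 with the birth cohort term.

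FCER1A, the alpha chain of the high-affinity immunoglobulin E receptor of basophils and mast cells (scaffold NW_017842185.1, 5357174 to 5368226), had 201, 399 and 772 FPKM in June 2017 and 417, 873 and 1789 in June 2014 (lowest, median and highest). All 12 June 2017 animals lay below the June 2014 median, and the ranges overlapped. FCER1A fell by 1.23 (standard error 0.23, adjusted p = 0.0052, limma). SUCNR1, the receptor for the metabolite succinate (scaffold NW_017843160.1, 16768015 to 16780648), had 34.7, 65.7 and 111 FPKM in June 2017 and 91.2, 143 and 251 in June 2014, and fell by 1.13 (standard error 0.17, adjusted p = 0.0018). It also passed among females alone (adjusted p = 0.030). OLR1, a scavenger receptor for oxidized low-density lipoprotein, had 69.8, 115 and 221 FPKM in June 2017 and 136, 219 and 397 in June 2014 (-0.93, adjusted p = 0.012). GPR34, a lysophospholipid receptor, had 6.12, 13.1 and 22.6 FPKM in June 2017 and 11.4, 26.141 and 43.07 in June 2014 (-0.94, adjusted p = 0.017), at a locus that overlaps another. FCER1A, SUCNR1 and OLR1 passed with both scalings, and GPR34 with neither (adjusted p = 0.063 with median-ratio scaling). All 4 were called in every fit that left out 1 library.

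FCER1A was the only one of 10 named eosinophil and basophil genes to pass, although 9 had a negative difference (median -0.39). MS4A2, the beta chain of the same receptor, had a median of 172 FPKM in June 2017 and 249 in June 2014 (-0.50, adjusted p = 0.11, limma). CCR3, the eotaxin receptor, had medians of 110 and 208 FPKM in June 2017 and June 2014 (-0.74, adjusted p = 0.063). MS4A2 and CCR3 were named after their values were seen. PRG3 may stand for an eosinophil granule proteoglycan or for another gene once given that symbol, and was counted with this list. It ranged from 0.729 to 71.7 FPKM in June 2017 and from 2.71 to 170 in June 2014 (-0.90, standard error 0.55, adjusted p = 0.40), and had a difference of 0.10 with the birth cohort term. The summed FPKM of the 10 genes ranged from 517 to 1840 with a median of 932 in June 2017 and from 819 to 2827 with a median of 1647 in June 2014. These sums include FCER1A, whose own medians were 399 FPKM in June 2017 and 873 in June 2014, so they largely follow that gene.

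The other white cell lists held few calls. CD3G, a chain of the T cell receptor complex, had 45.0, 86.6 and 118 FPKM in June 2017 and 78.9, 136 and 248 in June 2014 (lowest, median and highest), a difference of -0.82 (adjusted p = 0.019, limma), the only call among 8 T cell genes. With median-ratio scaling its adjusted p was 0.051. CD244, a receptor of natural killer cells, was the only call among 10 cytotoxic genes (-0.71, adjusted p = 0.025). CD244 had an adjusted p of 0.059 after median-ratio scaling and was not called without June 2017 replicate 2 or June 2014 replicates 2 or 7. None of 18 B cell genes passed, and 17 had positive differences. CD22 had a median of 24.03 FPKM in June 2017 and 15.144 in June 2014 (0.48, adjusted p = 0.27), CR2 11.2 and 6.52 (0.48, 0.43), CD79B 377 and 270 (0.27, 0.67), and MS4A1, which encodes CD20, 52.9 and 49.9 (0.12, 0.87). With the birth cohort term CR2, CD79B and MS4A1 had negative differences instead. The CR2 locus overlaps another. No locus passed among 21 neutrophil, 17 monocyte, 35 interferon-stimulated or 27 chemokine and cytokine receptor loci. LYZ, the lysozyme of granulocytes and monocytes, had 6459, 8660 and 16087 FPKM in June 2017 and 6841, 15784 and 22946 in June 2014 (-0.67, adjusted p = 0.065). LYZ had the most negative difference of the 21 neutrophil loci. Of these 21, 15 had a positive difference, with a list median of 0.08. With median-ratio scaling 17 were positive and the median was 0.22.

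**Figure D3:**
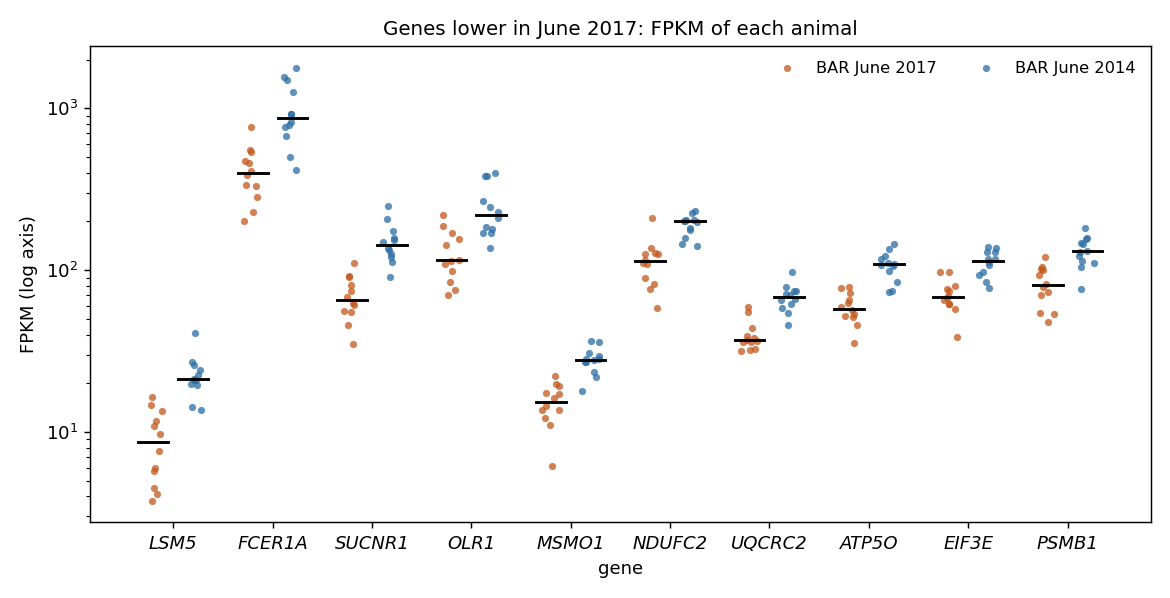
FPKM on a log axis (y) of 10 genes that were lower in June 2017 (x), 1 point per animal, June 2017 in orange on the left and June 2014 in blue on the right of each gene, with the median as a black line. The LSM5 medians are 8.68 FPKM in June 2017 and 21.2 in June 2014, and the upper June 2017 animals reach into the June 2014 range for each gene shown.

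LSM5 had the most negative difference of all named genes past the threshold. LSM5 is a subunit of the LSm ring that binds U6 small nuclear RNA and, in another form, takes part in the decay of messages, and its locus lies on scaffold NW_017842131.1 from 40813453 to 40817151. It had 3.76, 8.68 and 16.5 FPKM in June 2017 and 13.6, 21.2 and 41.15 in June 2014 (lowest, median and highest), with every June 2017 animal below the June 2014 median. It fell by 1.31 (standard error 0.21, adjusted p = 0.0018, limma), with a difference of -1.182 after median-ratio scaling. LSM5 was the only call among 29 splicing and LSm loci, whose median was -0.13, or 0.01 with median-ratio scaling. Among the other genes with large decreases, RPL36AL, a ribosomal protein gene, had medians of 45.3 FPKM in June 2017 and 93.4 in June 2014 (-1.06, adjusted p = 0.0069). MSMO1, a sterol oxidase of cholesterol synthesis, had 15.4 and 28.0 (-0.86, adjusted p = 0.0048). FCHO2, which initiates clathrin-coated pits, had 17.2 and 29.3 (-0.85, adjusted p = 0.017), and HPGD, which inactivates prostaglandins, 109 and 166 (-0.88, adjusted p = 0.037). RPL36AL and MSMO1 passed with both scalings and FCHO2 and HPGD with neither. HPGD, whose locus overlaps another, passed in 14 of 24 fits that left out 1 library, and not without June 2017 replicates 2, 3, 5, 10 or 12 or June 2014 replicates 2, 3, 7, 9 or 10.

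Nuclear genes of the respiratory chain were among those that fell. For Complex I 12 of 37 genes had a symbol, of which 2 fell (16.7%, against 3.41% of all named loci) and none rose. NDUFC2, an accessory subunit of the membrane arm (scaffold NW_017844196.1, 14938773 to 14946490), had 58.2, 114 and 209 FPKM in June 2017 and 142, 201 and 231 in June 2014 (lowest, median and highest), and fell by 0.78 (standard error 0.15, adjusted p = 0.0059, limma). One June 2017 animal lay above the June 2014 median. NDUFS5, another accessory subunit, had 23.98, 53.1 and 120 FPKM in June 2017 and 55.9, 109 and 177 in June 2014 (-0.99, standard error 0.23, adjusted p = 0.016), but missed the threshold after median-ratio scaling (-0.85, adjusted p = 0.071) and after quantile normalization (adjusted p = 0.059). The other 10 did not pass. Among these NDUFS6 had a difference of -0.69 (adjusted p = 0.056), NDUFB6 -0.47 (0.080), NDUFV2 -0.46 (0.093), NDUFS8 -0.42 (0.29), NDUFB9 -0.36 (0.21), NDUFA2 -0.34 (0.19), NDUFS3 -0.19 (0.49), NDUFB11 -0.13 (0.78) and NDUFV3 0.21 (0.47). With median-ratio scaling NDUFB11 stood at 0.015. The NDUFS3 locus overlaps another. The list's median was -0.39, against -0.12 for all tested loci, and -0.26 with quantile normalization, against 0.01.

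Complexes II to V gave 5 lower loci among 21 named ones (23.8%, against 3.41% of all named loci). The list's median was -0.36, or -0.21 with median-ratio scaling, and 16 of the 21 had a negative difference. UQCRC2, a core protein of Complex III (scaffold NW_017844586.1, 2669811 to 2696274), had 31.9, 36.8 and 59.3 FPKM in June 2017 and 45.8, 68.4 and 97.7 in June 2014 (lowest, median and highest), and fell by 0.77 (standard error 0.12, adjusted p = 0.0018, limma). The remaining calls are ATP synthase genes and a cytochrome oxidase subunit. ATP5O had 35.4, 57.9 and 79.1 FPKM in June 2017 and 73.2, 109 and 146 in June 2014 (-0.85, standard error 0.13, adjusted p = 0.0018), so that only the upper June 2017 animals entered the June 2014 range. ATP5F1 (-0.77, adjusted p = 0.0048) also passed with both scalings. ATP5G3 (-0.61, 0.041) and COX7A2 (-0.56, 0.028) passed with neither scaling. The mitochondrial inhibitor ATPIF1 and most Complex IV genes of the list were not called.

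Of 28 loci for translation initiation and elongation 4 fell (14.3%, against 3.41% of all named loci) and none rose. The list median was -0.13, or 0.01 with median-ratio scaling. EIF3E and EIF3M, subunits of the initiation factor eIF3, had medians of 68.0 and 55.3 FPKM in June 2017 against 114 and 84.6 in June 2014 (-0.67, adjusted p = 0.0068, and -0.66, adjusted p = 0.012, limma), and both passed with both scalings. The cap-binding EIF4E (-0.49, adjusted p = 0.036) and the helicase EIF4A2 (-0.48, 0.017, at an overlapping locus) passed with neither. Of the 84 cytosolic ribosomal protein loci of the list only RPS24 was called. It had a median of 679 FPKM in June 2017 and 1138 in June 2014 (-0.80, adjusted p = 0.040, limma), and did not pass with either scaling. RPL36AL, the ribosomal protein gene described above, is not in this list, and it was called and passed with both scalings. Because ribosomal protein genes have many closely similar copies, their reads may be split between loci.

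The proteasome, the protease that degrades ubiquitin-tagged proteins, had 5 lower loci among 16, against 3.41% of all named loci. All 16 had a negative difference, with a median of -0.30, against 69.4% negative and -0.12 over all tested loci. With median-ratio scaling 14 of the 16 were negative and the median was -0.16. The core subunits PSMB7 (29.1 FPKM median in June 2017, 50.09 in June 2014; -0.72, adjusted p = 0.013, limma), PSMB1 (80.6 and 131; -0.70, 0.013) and PSMA1 (-0.64, 0.017) and the base ATPase PSMC6 (-0.65, 0.013) passed with both scalings. SEM1 (-0.61, 0.027), a small lid protein, passed with neither. Of 27 loci for endosomal sorting and the secretory pathway, with a median of -0.31, or -0.17 with median-ratio scaling, 6 fell (22.2%). They include 3 subunits of the signal peptidase, which trims secreted proteins, namely SPCS3 (medians of 63.5 FPKM in June 2017 and 110 in June 2014; -0.78, adjusted p = 0.0068), SEC11C (-0.71, 0.013) and SPCS2 (-0.53, 0.019), with CHMP1B (-0.64, 0.018), TMEM167A (-0.56, 0.014) and the oligosaccharyltransferase gene OSTC (-0.49, 0.040). SPCS3 and SEC11C passed with both scalings and the other 4 with neither. CHMP1B has a symbol at 2 loci, of which the less abundant was called. The actin regulators CAPZA1 (-0.51, adjusted p = 0.045), CAPZA2 (-0.51, 0.034) and ARPC2 (-0.44, 0.048) and the histone variant H2AFZ (-0.62, 0.037), 1 of 19 cell division loci, also fell as deposited. CAPZA1 lies at an overlapping locus. None of these 4 passed with median-ratio scaling, and ARPC2 and H2AFZ passed with quantile normalization. With median-ratio scaling the 1 call among 31 actin and myosin loci was higher, MYH9, a non-muscle myosin heavy chain named after its values were seen (0.57, adjusted p = 0.045, against 0.43 and 0.14 as deposited). No locus was called among 41 of RNA polymerase II, Mediator and chromatin regulators (median 0.10) or among 18 of aryl hydrocarbon receptor signalling and detoxification (median -0.09, or 0.05 with median-ratio scaling), where AHR itself had medians of 17.0 FPKM in June 2017 and 20.6 in June 2014 (-0.25, adjusted p = 0.37).

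**Figure D4:**
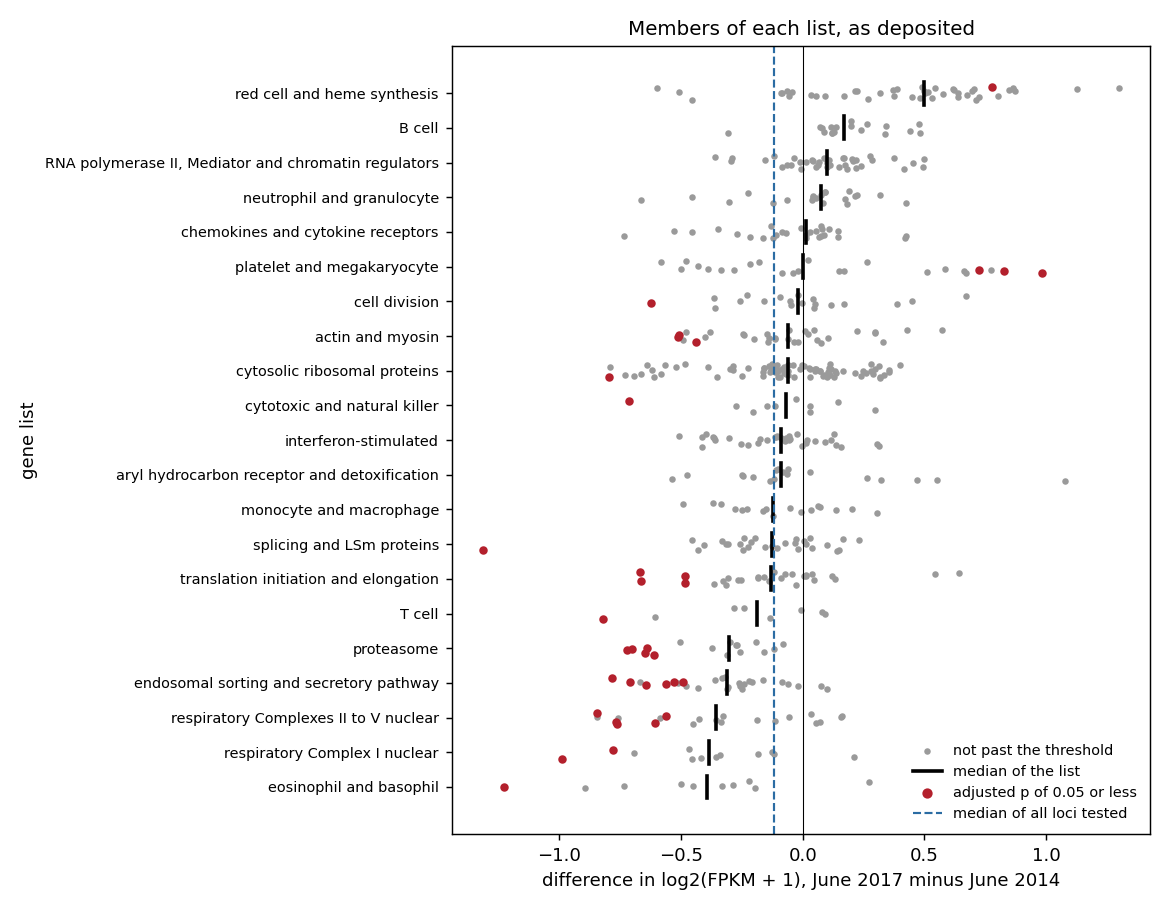
Difference in log2(FPKM + 1), June 2017 minus June 2014 (x), of every named member of each gene list (y), with members past the threshold in red, the others in grey, the list median as a black bar and the median of all tested loci (-0.12) as a dashed line. Calls lie to the left except for 3 platelet loci and 1 red cell locus, and the list medians run from -0.39 to 0.50.

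The levels in the other 5 collections place the 2 groups among them, as a description with no test. These genes were picked for their difference between the 2 groups, which favours opposite extremes. For ITGA2B, FCER1A and LSM5 the 2 groups held both extremes of the 7 medians, so the levels do not show which lay apart. For ITGA2B the June 2017 median of 108 FPKM was the highest of the 7 collections, the others lying between 53.6 in BAR June 2014 and 87.3 in SAR May 2014. The ITGA2B mean was 112 FPKM in both June 2017 and SAR May 2014, with highest values of 237 and 243. The TUBB1 and F13A1 medians were also highest in June 2017. Their June 2014 medians of 28.3 and 36.4 FPKM lay within those of the other 5 collections, from 21.2 to 29.5 and from 30.6 to 43.4. FCER1A had its lowest median in June 2017 (399 FPKM) and its highest in June 2014 (873), with the others between 650 and 788. LSM5 showed the same order, at 8.68 FPKM in June 2017 and 21.2 in June 2014, with the others from 10.6 to 15.2. UQCRC2 had medians of 68.4 FPKM in June 2014 and 66.0 in BAR June 2013, and of 36.8 in June 2017 against 48.9 in September 2017 and 49.2 in July 2018. The SAR medians of UQCRC2 were 35.1 and 41.2 FPKM. The ranges of neighbouring collections overlapped for each of these genes.

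**Figure D5:**
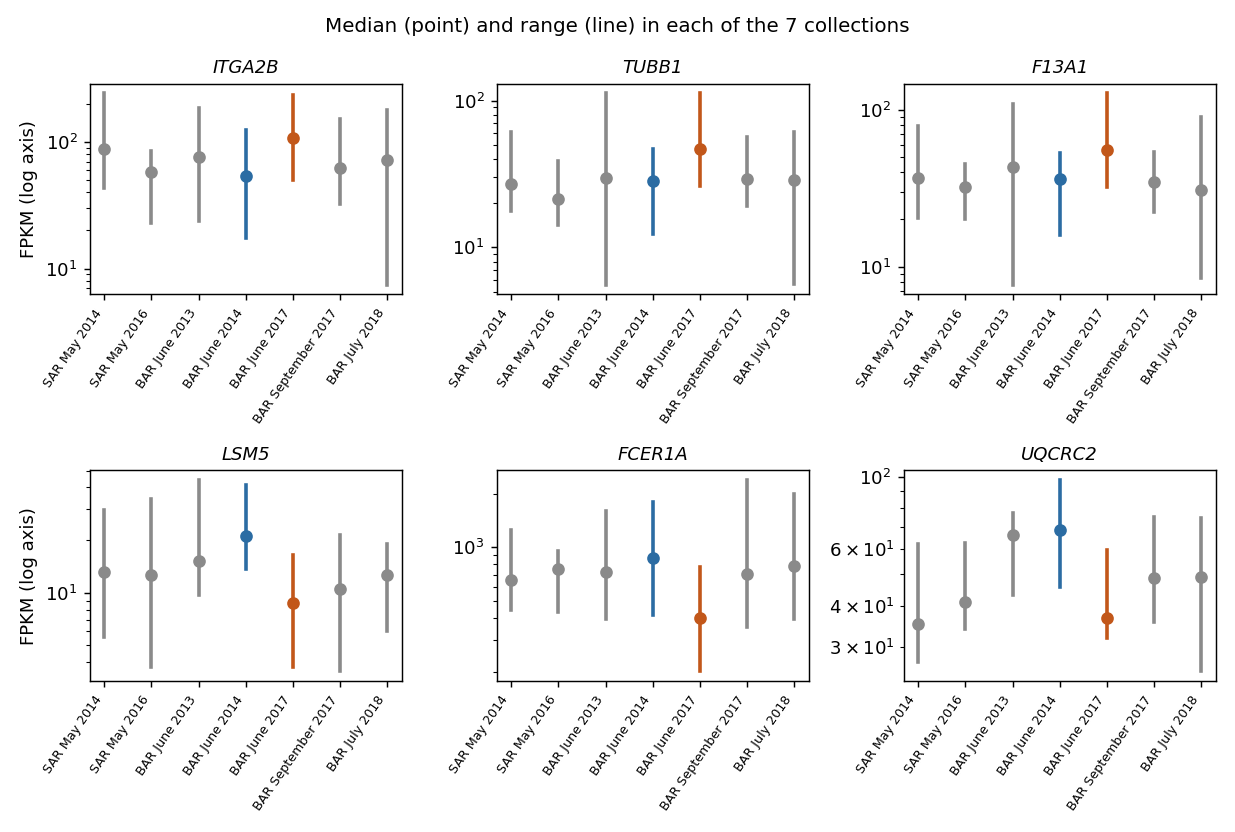
Median (point) and range (line) of FPKM on a log axis (y) for 6 genes in each of the 7 collections (x), with BAR June 2017 in orange, BAR June 2014 in blue and the others in grey (8 animals in each SAR collection, 12 in each BAR collection). The 3 platelet genes in the upper row have their highest medians in June 2017, and FCER1A has its lowest there, at 399 FPKM.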

How the data were processed

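Blood was collected in PAXgene tubes and libraries were made with a NEBNext Ultra Directional kit. The authors trimmed reads with Trimmomatic 0.33, checked them with FastQC, aligned them with TopHat2 2.1.1 on the basis of Bowtie2 to Tur_tru v1 and made the deposited FPKM values, 1 per locus, with Cufflinks 2.2.1, after masking hemoglobin transcripts. Whether counting used strand is not given in the sources used here. The second sheet, which repeats these values with its columns reordered, was left out. FPKM hold no read counts, so depth was estimated only in relative terms: in 2665 loci found in 10 to 40 libraries each lowest value was taken as 1 fragment (90.9% of values within 5%).

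Birth cohort, age class, pregnancy and body length came from the sample list of the study, matched on field identity and date. Loci were tested with limma 3.58.1 (eBayes with trend, R 4.3.3) on the deposited FPKM as log2(FPKM + 1), 12 against 12, without covariates. Library measures used two-sided permutation tests (100000 resamples). The p-values set a difference between groups against the spread between animals. Each group is 1 collection, so variation between collections is not measured. On 11632 simulated independent loci, the fit recovered 33% of 100 changes of 0.5 and 81% of 100 changes of 1. It made 9 false calls among the loci left unchanged.

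The members, gene lists and naming rule were chosen with earlier results of these data known. Named genes are called loci that carry a descriptive symbol and the same sign under both scalings, up to 12 of the largest in each direction, with the Complex I genes, genes that the study names for change over time, up to 5 called members of each list and 4 abundant genes. The result of 1 gene that the rule takes is not reported here. Others are stated to be named after their values were seen. Alternatives were a pseudocount of 0.1, no filter, a mean FPKM of at least 5, 2 scalings, 1 fit of the 60 BAR samples, terms for sex, body length, birth cohort or pregnancy, females only, a robust prior and leaving out each sample. The fits of animals of known cohort and of animals born before the spill were added after seeing the data.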

Additional observations from a re-analysis of the deposited data

How the results depend on the processing

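The number of calls changed with the setting. The total of 357 became 156 with median-ratio scaling, 205 with quantile normalization, 194 in the fit of 60 BAR samples, 151 with the body length term, 157 with the pregnancy term, 8 in females only and 0 with the birth cohort term or in animals born before the spill only. Higher loci (8) became 30, 36, 3, 5, 0, 0, 0 and 0 in these settings and 0 without a filter, and lower loci (349) became 126, 169, 191, 146, 157, 8, 0 and 0. Leaving out 1 library gave 205 to 615 calls, 2 to 31 higher and 202 to 584 lower. The pseudocount, stricter filter, sex term and robust prior kept the total within 1.5 times. The cause of these changes was not tested. Of the 47 named genes that were called, 29 passed in all 24 fits that left out 1 library, and the other 18 all failed without June 2017 replicate 2. The library measures kept their direction, except that summed FPKM differed by 4836 in females only (p = 0.93, permutation test). Leaving out 1 library, the difference ranged from -43445 to -6787 for summed FPKM, from -444 to -329 for loci above 0, from 2.22 to 3.35 percentage points for the share of the 10 and from 1.39 to 2.22 for that of the 1000 most abundant loci, from 0.857 to 2.42 for ribosomal protein loci and from -0.11 to -0.03 for relative depth. No paired analysis was possible because the 2 collections hold 24 different animals and the replicate numbers follow only the order of the records.

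Only genes that did not pass as deposited changed sign. With median-ratio scaling NDUFB11 was at 0.015. With quantile normalization NDUFB11 was at 0.016 and TPT1 at -0.23. With the body length term CD79B was at -0.25, MS4A1 at -0.33, CR2 at -0.029 and TPT1 at -0.22. With the birth cohort term NDUFB11 was at 0.080, NDUFS3 at 0.011, CD79B at -0.53, PRG3 at 0.10, MS4A1 at -0.41, CR2 at -0.33 and TPT1 at -0.046. With the pregnancy term PRG3 was at 0.016 and TPT1 at -0.025. In animals born before the spill only, NDUFB11 was at 0.0056, NDUFS3 at 0.16, CD79B at -0.43, PRG3 at 0.54, MS4A1 at -0.24, CR2 at -0.19 and TPT1 at -0.030. Leaving out 1 library, MS4A1 ranged from -0.0027 to 0.26 and TPT1 from -0.012 to 0.12.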

Other observations

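ARGLU1, CCNL1 and CLK4, named after their values were seen and in none of the gene lists, were also lower in June 2017. ARGLU1, a splicing and transcription cofactor, had 85.9, 108 and 171 FPKM in June 2017 and 145, 166 and 211 in June 2014 (lowest, median and highest), a difference of -0.54 (adjusted p = 0.0075, limma), and passed with both scalings. CCNL1, a cyclin tied to splicing factors, had medians of 36.7 FPKM in June 2017 and 49.8 in June 2014 (-0.46, adjusted p = 0.019), and CLK4, a relative of CLK1, 8.79 and 14.1 (-0.54, adjusted p = 0.034). CCNL1 and CLK4 did not pass with either scaling. All 12 June 2017 animals lay below the June 2014 median of CCNL1, and 11 of 12 below those of ARGLU1 and CLK4.

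Only 2 of the June 2014 animals were sampled again in 2017, in September and not in June. In the first of them CLK1 had 171 FPKM in September 2017 and 216 in June 2014, and in the second 146 and 190. LSM5 had 6.17 FPKM in September 2017 and 19.8 in June 2014 in the first, and 14.6 and 25.9 in the second. UQCRC2 had 42.9 FPKM in September 2017 and 97.7 in June 2014 in the first, and 51.6 and 74.0 in the second. ITGA2B had 86.9 FPKM in September 2017 and 52.3 in June 2014 in the first, and 60.1 and 21.3 in the second. FCER1A went opposite ways, with 817 FPKM in September 2017 and 1269 in June 2014 in the first animal, and 532 and 417 in the second. These animals belong to the June 2014 group compared above, so their values are no separate evidence, and 2 animals allow no test.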
